A study of Mus musculus with 24 samples.

Results

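The comparison described here sets Nox2 knockout mice against wild type mice, both injected with phosphate-buffered saline (PBS), in 6 and 6 libraries of the 24 in the series. Its members are the autosomal genes and Cybb, the X-linked gene that encodes Nox2. Of the 55421 genes in the count table, 50971 were autosomal or Cybb, and 13890 of the 14380 genes with enough counts to be tested belonged to that set. The mice were 3 months old, and every library carries the strain label C57BL/6J. Both groups received 100 µl of PBS into the peritoneum once a day on 4 days. In the other 12 libraries, 6 of each genotype, lipopolysaccharide (LPS) of Salmonella abortus equi was given on the same schedule at 1 µg per g body weight a day. The series concerns the part of gp91phox, as Nox2 is also called, in neurodegeneration after repeated LPS, and the PBS groups show the genotypes without it. RNA came from the homogenised left brain hemisphere. The labels do not say how the knockout line was made, which part of the gene is disrupted, or whether the groups were littermates. Line of origin and genotype therefore cannot be told apart, and "knockout" below means a library labelled so.

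Nox2 is the catalytic, electron-carrying subunit of the phagocyte NADPH oxidase, the enzyme that makes superoxide. It sits in the membrane with p22phox (Cyba), and the enzyme becomes active when cytosolic subunits, among them p47phox (Ncf1) and p40phox (Ncf4), and the small GTPase Rac join them. In the brain the enzyme is best known from microglia, the resident macrophages, where it serves killing, signalling and the clearing of debris.

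The 12 libraries held 2.34 to 5.26 units of 1e+06 counts. The means in these units were 4.12 ± 1.06 (SD, n = 6) in wild type and 3.79 ± 0.52 in knockout, which differed by less than the spread between libraries (two-sided exact permutation test over 924 splits, p = 0.517). Levels are given as counts per 1e+06 counts of the library total (CPM). Each library counts tags near the 3′ end of transcripts. Markers of neurons, oligodendrocytes, astrocytes, microglia and endothelium were present in all 12 libraries, with Snap25 at 1629 to 1964 CPM, Mbp at 1741 to 2024 CPM, Slc1a2 at 2110.3 to 2358 CPM, Cx3cr1 at 52.1 to 73.6 CPM and Cldn5 at 25.1 to 45.6 CPM. One wild type library, replicate 4, had no count of the olfactory markers S100a5 and Omp, and replicate 3 of that group had the highest summed level of the olfactory list, so results that rest on them are given with and without those libraries.

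Cybb tags were higher, not lower, in the knockout libraries. The gene (ENSMUSG00000015340, chrX:9435252-9487771, minus strand, GRCm38) had 0.85, 1.42 and 2.47 CPM as the lowest, median and highest wild type value. The knockout values were 62.2, 66.8 and 75.2 CPM. All 6 knockout libraries lay above all 6 wild type libraries, and the spread within each genotype was a small share of the gap. The log2 fold change was 5.42 ± 0.18 (SE; edgeR quasi-likelihood test, adjusted p = 1.86e-26), and the exact permutation test on mean CPM gave p = 0.0021645, the smallest that 6 against 6 allows. Since the tags sit at the 3′ end and the disrupted part is not given, this level checks neither the loss of the protein nor the labels. After LPS the wild type level was 24.6 ± 8.07 CPM (SD, n = 6) and the knockout level 71.9 ± 4.50 CPM. The genotype difference was then 1.52 ± 0.11, and the interaction, which is the difference after LPS minus that after PBS, was -3.90 ± 0.25 (same edgeR fit, adjusted p = 2.34e-15).

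The partner subunits of Nox2 described here did not pass the test. Of 9 tested genes of the NADPH oxidase list, Cybb rose and none fell. Ncf1, the organiser subunit, had a median of 6.84 CPM (5.29 to 10.7) in wild type and of 5.27 CPM in knockout (-0.35 ± 0.20, edgeR adjusted p = 0.655). Cyba, the membrane partner, had medians of 6.72 and 5.60 CPM (-0.30 ± 0.20, adjusted p = 0.70). Ncf4 was at or under 1.67 CPM in every library of both groups, and at such levels a change of this size was not detectable (-0.77 ± 0.60, -0.32 without wild type replicate 4 and -1.15 without knockout replicate 4). The abundant GTPase Rac1 had medians of 281 and 278 CPM (-0.02), and Rac2, its relative in blood cells, stayed at or under 1.98 CPM (-0.10). The chaperone Cybc1 (-0.10 ± 0.11), the organiser Noxo1 (0.19 ± 0.37) and P4hb, protein disulfide isomerase (0.04 ± 0.07), also did not pass. The other 9 genes of the list, among them Nox1, Nox3 and Nox4, had too few counts to be tested. Nox4 for example had 7 counts over the wild type and 8 over the knockout libraries.

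Across the 13889 autosomal genes tested, 16 were called at an adjusted p under 0.05, which is 0.115% of those tested. Of these, 3 were higher (0.0216%) and 13 lower (0.0936%) in knockout, and 2 of the higher and 6 of the lower ones changed by more than 1 on the log2 scale. At an unadjusted p under 0.05, 1214 genes (8.74%) differed, 648 (4.67%) higher and 566 (4.08%) lower. The median log2 fold change over all autosomal genes was 0.000247, and the median SE was 0.108. It was 0.0758 for the 7364 genes with at least 20 CPM and 0.374 for the 349 genes under 2 CPM, so changes in scarce transcripts could be detected only when large. The values of all 6 knockout libraries lay above or below all 6 wild type libraries for 56 genes (0.403%), and 8 of the 16 called genes were among them.

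Wdfy1, Gabra2, Ndn and Tmem181b-ps separated the genotypes completely, after PBS and in the separate animals injected with LPS. Wdfy1 (ENSMUSG00000073643, chr1:79702262-79776143) encodes an endosomal protein with FYVE and WD40 domains. It had 53.2, 58.5 and 60.9 CPM as lowest, median and highest wild type value and 15.2, 16.2 and 20.8 CPM in knockout. It fell by 1.78 ± 0.08 on the log2 scale (edgeR, adjusted p = 1.04e-20), and the change after LPS was -1.76 ± 0.08. Its opposite-strand neighbour Mrpl44, which overlaps it, was at 0.07 ± 0.10 (adjusted p = 0.894).

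Gabra2 (ENSMUSG00000000560, chr5:70957597-71095849) encodes the alpha-2 subunit of the GABA-A receptor, the chloride channel of fast inhibition. Its wild type libraries lay at 107, 115 and 119 CPM and its knockout libraries at 44.4, 50.2 and 59.8 CPM. It fell by 1.15 ± 0.07 (edgeR, adjusted p = 5.30e-17) after PBS, and by 1.18 ± 0.07 after LPS. Gabra2 is known to carry a variant in C57BL/6J that lowers its RNA relative to related substrains. Here the lower level lay in the knockout libraries, while libraries of both genotypes carry the C57BL/6J label. Wdfy1 and Tmem181b-ps are on the same list of substrain genes, of which 9 were tested, 1 called higher and 2 called lower. Substrain was not typed here. The other 11 of the 12 tested GABA-A subunit genes were not called. Its chromosomal neighbours Gabrg1 (0.03 ± 0.10) and Gabra4 (0.09 ± 0.06) sat near 0. Among the rest, Gabrd, the extrasynaptic delta subunit, had medians of 87.2 CPM in wild type and 100.3 CPM in knockout (0.23 ± 0.07, adjusted p = 0.226). Gabra5, the hippocampal alpha-5 subunit, had medians of 64.8 and 54.4 CPM (-0.23 ± 0.07, adjusted p = 0.294). The list's median was -0.05. Of 14 tested genes for GABA synthesis, transport and anchoring, none was called by edgeR or DESeq2. There 1 was higher and 3 lower at an unadjusted p under 0.05, against 4.67% and 4.08% of autosomal genes. The enzyme Gad1 was at -0.20 ± 0.06 (adjusted p = 0.304) and the vesicular transporter Slc32a1 at 0.15 ± 0.06 (adjusted p = 0.45).

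Ndn (ENSMUSG00000033585, chr7:62346569-62350262) encodes necdin, a growth suppressor of neurons expressed from the paternal allele in the Prader-Willi region. Wild type libraries held 161, 178 and 196 CPM and knockout libraries 98.3, 108 and 122 CPM. Ndn fell by 0.72 ± 0.05 after PBS (edgeR, adjusted p = 9.88e-14) and by 0.70 ± 0.05 after LPS. None of the 39 other tested imprinted genes was called, and the list's median was -0.03. Magel2, the nearest tested gene and a member of the same imprinted region, was at 0.32 ± 0.21 (adjusted p = 0.704).

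Tmem181b-ps (ENSMUSG00000096780, chr17:6438524-6467022, annotated as a transcribed unprocessed pseudogene) was nearly confined to the knockout libraries. Wild type held 1 count in all, in replicate 3, and knockout 272 counts, from 10 in replicate 6 to 61 in replicate 4. Corrected for depth, the ratio was 295 (exact 95% interval 52.5 to 11699.9, which covers counting error only). The knockout libraries lay at 3.42 to 15.1 CPM after PBS and at 7.81 to 16.6 CPM after LPS, where all 6 wild type libraries held 0 counts. The last 300 bases of its transcript are 99.0% identical to Tmem181a over 298 aligned bases, so reads of the pair can be exchanged. The level of Tmem181a itself was 12.8 ± 2.16 CPM (SD, n = 6) in wild type and 13.7 ± 1.68 CPM in knockout (0.11 ± 0.13, adjusted p = 0.865).

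**Figure D1:**
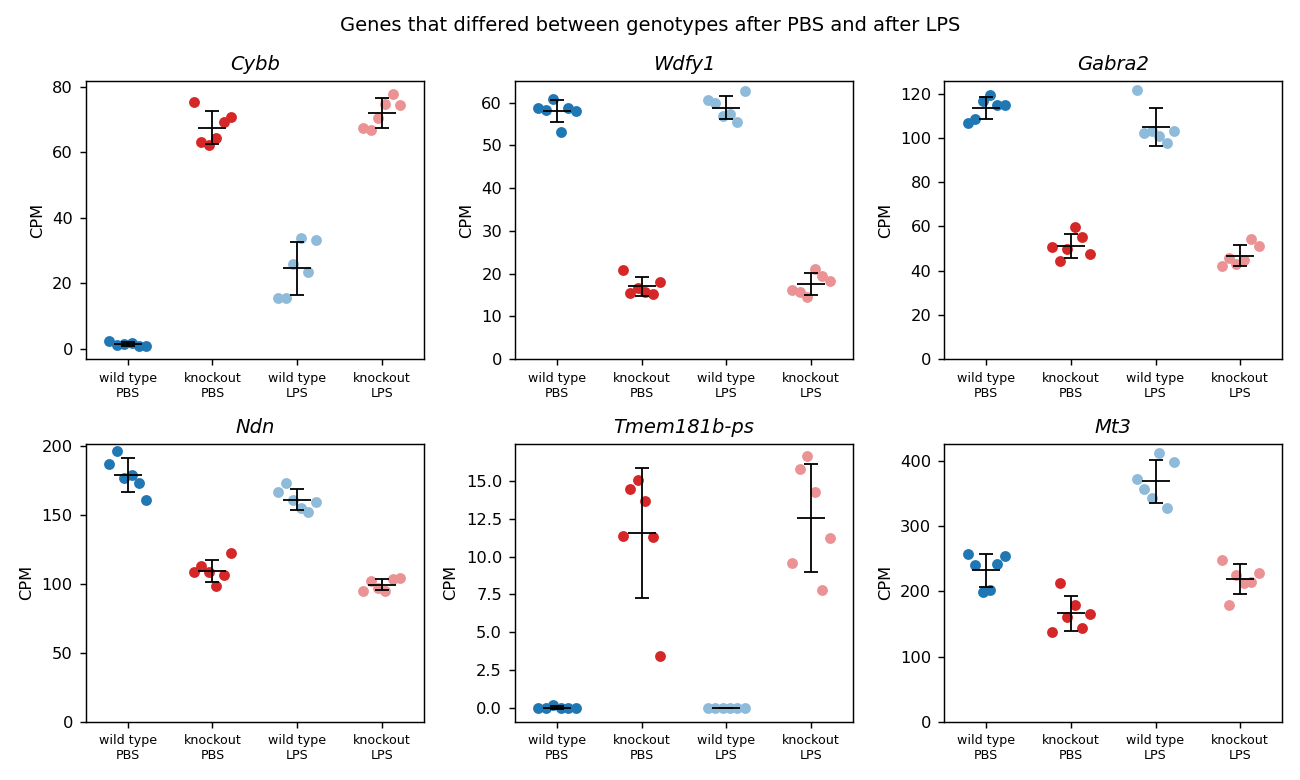
Level in CPM (vertical axis) of 6 genes in each of the 24 libraries, by genotype and injection (horizontal axis). Points are libraries, and the bars give mean and SD. Cybb, Wdfy1, Gabra2, Ndn and Tmem181b-ps show genotypes that do not overlap after either injection, while Mt3 overlaps after PBS and separates after LPS.

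Genes of the list for olfactory nerve and olfactory bulb, not all confined to that tissue, made up the largest group of lower genes. Of the 18 tested, 6 fell and none rose, against 0.0936% of autosomal genes that fell. S100a5, Omp and Shisa3 had at most 5 counts in any knockout library, and the filter asked for a minimum count of 10. They were therefore tested only because of their wild type libraries, which largely set the direction they could take in this count and those below. At an unadjusted p under 0.05, 12 were lower, against 4.08% of autosomal genes. DESeq2 called 3 of them lower, Omp, Shisa3 and Synpr. The list's median log2 fold change was -0.71, beside 0.000247 over all autosomal genes. All gene lists here were chosen with earlier results of these data known. Their counts beside the shares over all genes are therefore descriptions and do not test an excess. S100a5 and Omp mark olfactory sensory neurons, whose axons end in the bulb. S100a5 (chr3:90608523-90611780) had 0, 10.9 and 18.7 CPM as lowest, median and highest wild type value and 0, 0.412 and 1.35 CPM in knockout. Wild type replicate 4, at 0, lay within the knockout range, and the other 5 wild type libraries lay above it. S100a5 changed by -4.17 ± 0.66 (edgeR, adjusted p = 0.000164). Omp (chr7:98143359-98145502, inside Capn5 on the same strand) ran from 0 over a median of 8.84 to 17.4 CPM in wild type and from 0 over 0.755 to 0.811 CPM in knockout. It changed by -3.79 ± 0.63 (adjusted p = 0.000451), while the host gene Capn5 was at -0.12 ± 0.11 (adjusted p = 0.82).

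Markers of cells of the bulb itself also fell. Doc2g, a C2-domain gene, had medians of 8.31 CPM in wild type (2.92 to 19.5) and 3.29 CPM in knockout (2.40 to 5.95), with a change of -1.36 ± 0.30 (edgeR, adjusted p = 0.0426). Shisa3, an inhibitor of Wnt and FGF signalling, had 3.59 CPM (1.04 to 4.54) and 0.866 CPM (0.269 to 1.21), with a change of -1.92 ± 0.42 (adjusted p = 0.0342). In both genes wild type replicate 4 was the lowest of its group and fell among the knockout values.

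Fabp7, the fatty acid binding protein of radial glia and of the glia that sheathe olfactory axons, had 53.6 CPM (39.6 to 76.7) against 30.5 CPM (25.9 to 44.6). It changed by -0.81 ± 0.18 (edgeR, adjusted p = 0.0348). Synpr, synaptoporin of synaptic vesicles, had 118 CPM (107 to 136) against 90.9 CPM (83.1 to 114), a change of -0.35 ± 0.07 (adjusted p = 0.0148). The overlap of Synpr came from knockout replicate 1, at 114 CPM. Wild type replicate 4, with no count of S100a5 and Omp, still held 39.6 CPM of Fabp7 and 107 CPM of Synpr. Much of the level of these genes was thus not tied to those markers.

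Some other bulb genes lay in the same direction without passing the test. Cdhr1, a cadherin of mitral and tufted cells, was at -1.32 ± 0.31 (edgeR, adjusted p = 0.069) with medians of 12.8 and 4.69 CPM. Th, tyrosine hydroxylase, which dopaminergic interneurons of the bulb share with the midbrain, was at -0.78 ± 0.19 (adjusted p = 0.102). Among midbrain dopamine genes without the bulb in their list, En1 (0.20 ± 0.22) and Slc18a2 (-0.17 ± 0.23) were not called either. The list members Adcy3 (-0.12 ± 0.08), Calb2 (-0.05 ± 0.06), Gng13 (0.01 ± 0.08), Ric8b (0.06 ± 0.08) and Lbhd2 (0.09 ± 0.25) lay near 0. Meis2, an abundant member, was at -0.28 ± 0.08 (adjusted p = 0.191). In all, 15 tested members had negative and 3 positive values. Members with too few counts to be tested went both ways, such as Stoml3 (70 wild type and 27 knockout counts) and Gng8 (43 and 51).

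Each of the 6 called olfactory genes was lowest in replicate 4 among the wild type libraries. The summed level of the list was 699 to 962 CPM in wild type, lowest in replicate 4 and highest in replicate 3, and 636 to 750.3 CPM in knockout. Much of this sum came from abundant members that were not called, such as Meis2 and Calb2 with wild type means of 263 and 148 CPM. Whether the genes varied together was not tested. After LPS the summed level was 629 to 843 CPM in wild type and 610.3 to 653 CPM in knockout. There 6 of the 18 genes were called lower, against 1.04% of autosomal genes called in either direction. They were S100a5, Omp, Shisa3, Cdhr1, Eomes and Sp8, while Synpr, Fabp7 and Doc2g were not called (edgeR, adjusted p = 0.0744, 0.333 and 0.0857). In a bulk hemisphere, fewer cells of a type and less RNA per cell cannot be told apart, and whether the amount of bulb left on the hemisphere differed between dissections was not tested. Without wild type replicate 3, Doc2g, Shisa3, Fabp7 and Synpr lost their calls, with adjusted p of 0.408, 0.176, 0.192 and 0.147. These calls also ended on dropping other single libraries of either genotype, for 8 of the 12 libraries in all for Doc2g and Fabp7, 7 for Shisa3 and 4 for Synpr. Without replicates 3 and 4 together, Fabp7 (0.0528) and Synpr (0.0702) were not called, and Cdhr1 was (-1.46 ± 0.27, edgeR adjusted p = 0.00407). Leaving out replicate 4 alone raised the count of lower genes from 13 to 20, and leaving out replicate 3 brought it to 7. The calls of S100a5 and Omp held when any 1 of the 12 PBS libraries was dropped. DESeq2 did not call S100a5, however, and neither gene passed the count filter in a fit of the 12 PBS libraries alone.

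**Figure D2:**
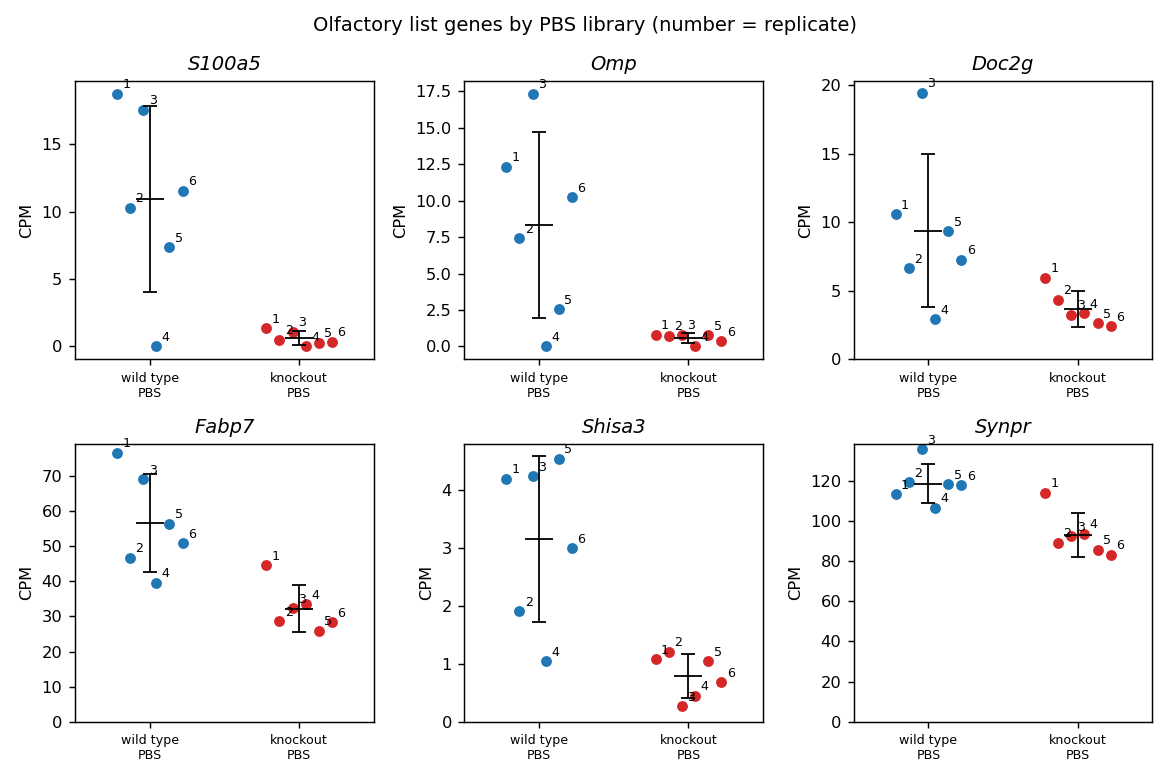
CPM (vertical axis) of the 6 olfactory list genes that fell, in each PBS library by genotype (horizontal axis), with replicate numbers beside the points and bars for mean and SD. Wild type replicate 4 is the lowest of its group in each panel and replicate 3 is high in most, while the knockout libraries sit low, apart from replicate 1 of Synpr at 114 CPM.

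Clock genes were the one list with a called rise besides the NADPH oxidase and substrain lists. In the circadian clock, CLOCK and BMAL1 (Arntl) drive genes through E-boxes, the PER and CRY proteins hold them back, and the receptors REV-ERB alpha (Nr1d1) and REV-ERB beta (Nr1d2) repress Arntl and Nfil3. Of 23 tested clock genes, Nr1d2 rose and none fell, against 0.0216% of autosomal genes that rose. At an unadjusted p under 0.05, 7 were higher and 2 lower, against 4.67% and 4.08% of autosomal genes, and the median was 0.07. Nr1d2 (chr14:18204054-18239127) had 83.3, 98.8 and 106 CPM as lowest, median and highest wild type value and 113, 121 and 137 CPM in knockout, with no overlap. The rise was 0.33 ± 0.06 (edgeR, adjusted p = 0.00234), and the call held when any 1 of the 12 PBS libraries was dropped.

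Several output and repressor genes of the clock lay just outside the threshold. Per1 had medians of 88.0 CPM in wild type (82.5 to 113) and 117 CPM in knockout (102 to 120.4), a difference of 0.31 ± 0.07 (edgeR, adjusted p = 0.0582). Dbp, a clock output factor, had 39.8 CPM (30.1 to 53.4) and 53.7 CPM (43.0 to 97.9), a difference of 0.56 ± 0.13 (adjusted p = 0.0666). Nr1d1 had 39.3 CPM (32.3 to 50.5) and 54.4 CPM (41.4 to 68.1), at 0.42 ± 0.10 (adjusted p = 0.069). The groups overlapped in all of these genes, and DESeq2 called Per1 (adjusted p = 0.0399). Ciart (0.51 ± 0.16) and Tef (0.20 ± 0.06) also had positive values. Arntl (-0.30 ± 0.11, adjusted p = 0.382) and Nfil3 (-0.42 ± 0.15, adjusted p = 0.404), both targets of the REV-ERB repressors, had negative ones. After LPS no clock gene was called by edgeR, with 1 at an unadjusted p under 0.05, and Nr1d2 was at 0.01 ± 0.06. The difference between its genotype effects was -0.32 ± 0.09 with an adjusted p of 0.229, so it was not shown to differ between injections. The time of day of sampling is not among the labels, and its part in these values was not tested.

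The promoters of Nr1d2 and Per1 are shown because they hold elements through which the clock is known to act. Sequences are from RefSeq on GRCm38.p6, from 250 bases before to 50 bases after the start, in the direction of transcription. Capitals mark AGGTCA, the half-site read by REV-ERB and ROR receptors, in Nr1d2 (chr14:18239057-18239356, minus strand), and the E-box CACGTG in Per1 (chr11:69098699-69098998, plus strand), both searched on both strands. The Per1 window also holds 1 AGGTCA, on its other strand and left in lower case, and the window of a second Per1 start held no CACGTG. The windows of Dbp and Nr1d1 held neither AGGTCA nor CACGTG.
Nr1d2: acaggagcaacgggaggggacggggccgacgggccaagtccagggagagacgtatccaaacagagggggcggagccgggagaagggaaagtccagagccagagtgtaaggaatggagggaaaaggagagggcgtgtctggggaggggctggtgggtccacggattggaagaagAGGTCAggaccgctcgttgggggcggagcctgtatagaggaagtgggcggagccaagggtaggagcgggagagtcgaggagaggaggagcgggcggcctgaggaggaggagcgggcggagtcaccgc
Per1: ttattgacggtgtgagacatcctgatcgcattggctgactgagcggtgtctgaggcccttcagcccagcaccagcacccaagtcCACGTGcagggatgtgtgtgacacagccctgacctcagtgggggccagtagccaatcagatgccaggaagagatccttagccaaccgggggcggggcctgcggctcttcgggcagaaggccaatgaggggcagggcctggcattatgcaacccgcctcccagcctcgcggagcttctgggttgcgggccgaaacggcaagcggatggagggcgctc
AGGTCA stood in 16.3% and CACGTG in 7.14% of the 31396 autosomal promoter windows. Of the 18 clock genes with a promoter entry, 5 held AGGTCA and 5 held CACGTG in any of their windows. That is a count per gene and cannot be set directly against the shares per window. A match of letters is a description of the window and not evidence of binding.

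**Figure D3:**
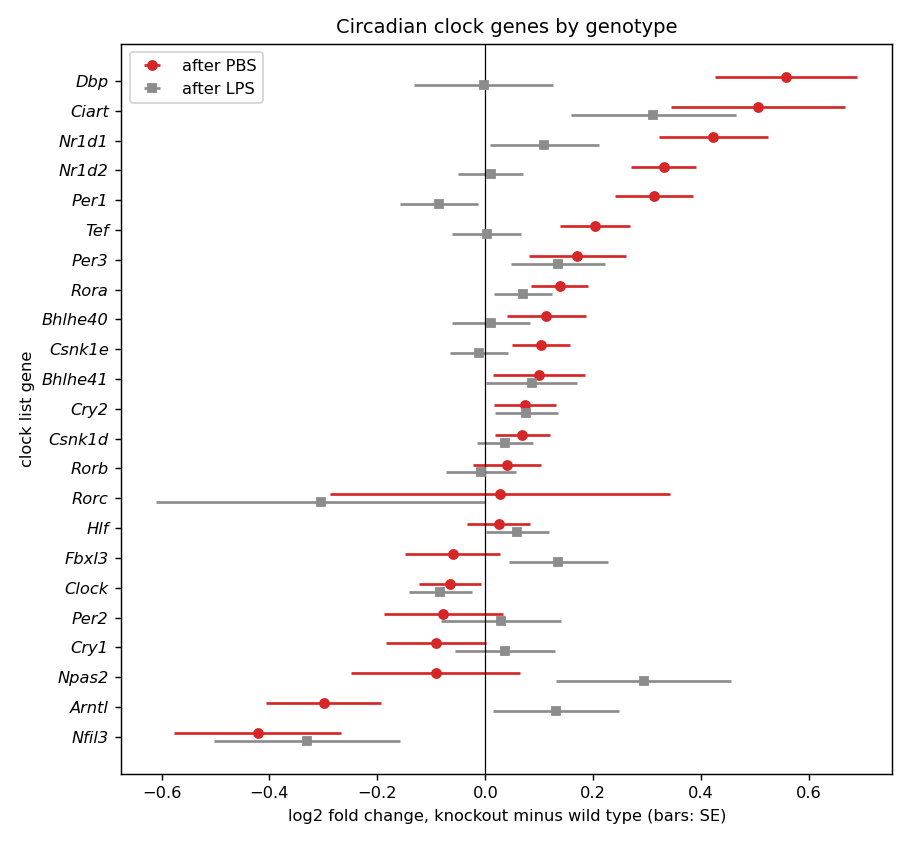
Log2 fold change of knockout minus wild type (horizontal axis, bars are SE) for the 23 clock list genes (vertical axis), after PBS in red circles and after LPS in grey squares. Dbp, Ciart, Nr1d1, Nr1d2 and Per1 lie furthest right after PBS and Nfil3 and Arntl furthest left, and Nr1d2 is the only one called.

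Mt3 fell in knockout after both injections. Mt3 (chr8:94152607-94154146) encodes metallothionein-3, the zinc- and copper-binding growth inhibitory factor of the brain. Its wild type libraries held 199, 242 and 257 CPM and its knockout libraries 138, 163 and 213 CPM, with overlapping ranges. The change was -0.48 ± 0.08 (edgeR, adjusted p = 0.000258) after PBS. After LPS, where no knockout library reached a wild type one, it was -0.76 ± 0.07 (adjusted p = 1.05e-09). The metal-inducible relatives next to it on the chromosome moved less, with Mt2 at -0.12 ± 0.06 (adjusted p = 0.524) and Mt1 at -0.13 ± 0.05 (adjusted p = 0.472). The promoter of Mt3 (RefSeq, GRCm38.p6, chr8:94152357-94152656, plus strand) is shown with TGCNCNC on either strand in capitals. This pattern is looser than the core of the metal response element, in which the fourth base is a purine.
Mt3: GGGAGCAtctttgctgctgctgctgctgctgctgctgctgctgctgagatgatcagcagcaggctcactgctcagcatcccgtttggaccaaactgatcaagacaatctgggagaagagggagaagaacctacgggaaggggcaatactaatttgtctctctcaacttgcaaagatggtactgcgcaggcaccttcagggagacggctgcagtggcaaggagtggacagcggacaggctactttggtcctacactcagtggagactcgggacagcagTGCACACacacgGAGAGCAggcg
It held 3 matches, and 51.4% of the 31396 windows held at least 1, so the loose pattern is common at this length. A match to it need not be the element.

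Cdkn1a, Ly6c1 and Polr3e fell after PBS and were not called after LPS. Cdkn1a (chr17:29090976-29100727) encodes p21, the inhibitor of cyclin-dependent kinases and a classical target of p53 and of glucocorticoids. Wild type libraries held 40.4, 43.8 and 59.4 CPM and knockout libraries 15.7, 25.8 and 33.8 CPM, without overlap. It fell by 0.82 ± 0.13 (edgeR, adjusted p = 0.000164) and was at -0.42 ± 0.13 (adjusted p = 0.109) after LPS. The interaction was 0.40 ± 0.18 with an adjusted p of 0.466, so the effects were not shown to differ.

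Among the 27 tested p53 target genes Cdkn1a alone was called, and the median was -0.04. Ccng1, another p53 target, was at -0.21 ± 0.08 (edgeR, adjusted p = 0.447). Among 20 tested glucocorticoid response genes it was again the one called. There 16 values were negative, 10 genes were lower at an unadjusted p under 0.05 against 4.08% of all autosomal genes, and the median was -0.17. The co-chaperone Fkbp5 was at -0.36 ± 0.11 (adjusted p = 0.294), the inhibitor Nfkbia at -0.18 ± 0.06 (adjusted p = 0.377) and the transcription factor Klf9 at -0.11 ± 0.05 (adjusted p = 0.453). Per1, which belongs to this list as well, had the opposite sign.

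Ly6c1 (chr15:75044018-75048830), a surface protein of brain endothelium, had 29.8, 35.5 and 36.8 CPM in wild type and 20.7, 26.4 and 30.9 CPM in knockout. The highest knockout library lay just above the lowest wild type one. It fell by 0.41 ± 0.08 (edgeR, adjusted p = 0.0141) and was at 0.06 ± 0.07 after LPS, with an interaction of 0.47 ± 0.11 (adjusted p = 0.146). Of 22 tested endothelial genes it alone was called, with a median of -0.07. The glucose transporter Slc2a1 followed at -0.29 ± 0.07 (adjusted p = 0.0719) and von Willebrand factor, Vwf, at -0.41 ± 0.17 (adjusted p = 0.471). Polr3e (chr7:120917744-120947432), a subunit of RNA polymerase III, had 24.9, 26.2 and 31.2 CPM against 15.7, 20.2 and 24.1 CPM, without overlap. It fell by 0.46 ± 0.10 (adjusted p = 0.0426). Dropping 1 library at a time removed that call for 7 of the 12 libraries, and the call of Ly6c1 for 3.

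**Figure D4:**
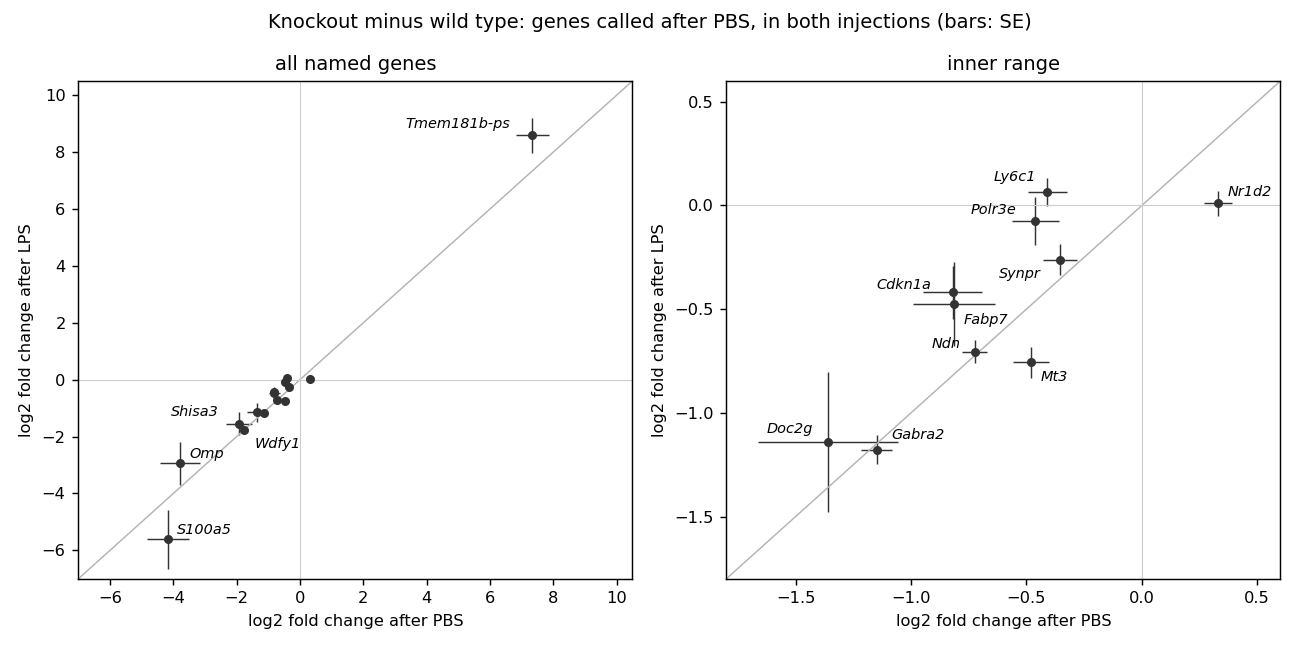
Log2 fold change of knockout minus wild type after PBS (horizontal axis) and after LPS (vertical axis) for the named autosomal genes called after PBS, with SE bars and a line of equal change. The right panel enlarges the inner range, where Gabra2 and Ndn lie on the line, Mt3 lies below it, and Cdkn1a, Ly6c1, Polr3e and Nr1d2 lie nearer 0 after LPS.

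The LPS libraries come from other animals and share none with the PBS contrast. There 145 autosomal genes (1.04%) were called between genotypes. Of the 16 genes called after PBS, 15 had the same sign after LPS and 9 were called in the same direction. Tmem181b-ps, S100a5, Omp and Shisa3 passed the count filter through 1 genotype only, which largely set their sign in both contrasts. Groups did not overlap for 0.655% of autosomal genes after LPS, and 5 of the 16 separated on the same side after both injections. Shares over all autosomal genes for the same sign, or for separation on the same side after both injections, were not computed. The counts out of 16 are therefore descriptions. In the interaction test with edgeR no autosomal gene was called (0%), while 1360 had an unadjusted p under 0.05. DESeq2 on the same counts called 10 in the interaction, among them the lysosomal genes Ctsd and Lamp1 and the astrocyte genes S100b, Ndrg2 and Sox9, and none of them was called by edgeR after PBS.

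Called genes lay on 11 autosomes, and none started within 1 Mb of another. Some shared a chromosome, such as Shisa3 (chr5:67607882-67623552) with Gabra2 (chr5:70957597-71095849), and Synpr (chr14:13284780-13616340) with Nr1d2 (chr14:18204054-18239127). Wider windows were not examined. Within 1 Mb of each named gene no other tested gene was called. Closest to the threshold among those neighbours was Fkbp5 near Cdkn1a (edgeR, adjusted p = 0.294).

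Genes of the immune and glial lists did not pass the edgeR test. In the immune, oxidant, neural, glial, regional and blood lists given from here on, edgeR called no gene, and DESeq2 called Ctss alone. Of 22 tested homeostatic microglia genes, 1 was higher and 1 lower at an unadjusted p under 0.05, against 8.74% of autosomal genes in either direction, and their median was -0.06. The complement subunit C1qb was at -0.20 ± 0.09 (edgeR, adjusted p = 0.517), and the receptor Trem2 at -0.27 ± 0.14 (adjusted p = 0.613). The summed level of the list was 1201 to 1381 CPM in wild type and 1187 to 1463 CPM in knockout. Among 21 activated microglia genes, 1 was higher and 1 lower at that unadjusted p. Ctss, the lysosomal protease cathepsin S, came closest, with medians of 68.6 CPM in wild type (61.5 to 82.7) and 56.2 CPM in knockout (50.6 to 67.3), a difference of -0.32 ± 0.08 (adjusted p = 0.0723 by edgeR and 0.0399 by DESeq2).

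The medians were -0.16 for 15 complement genes, -0.13 for 19 interferon response genes, -0.01 for 21 genes of cytokines, chemokines and NF-kB and 0.03 for 16 of MHC and antigen presentation. They were 0.005 for 29 genes of phagocytosis and the lysosome and 0.03 for 12 of monocytes and border macrophages. At an unadjusted p under 0.05, 2 complement, 2 interferon and 1 cytokine gene were lower, and 1 phagocytosis gene was higher and 1 lower. The shares over all autosomal genes at that p were 4.67% higher and 4.08% lower. Trim30a, an interferon-induced restraint on Toll-like receptor signalling, was at -0.77 ± 0.27 (edgeR, adjusted p = 0.382). Scarce transcripts such as Tnfaip3, at 1.38 ± 0.593 CPM (SD, n = 6) in wild type and 1.01 ± 0.378 CPM in knockout, leave only large changes detectable.

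Genes that handle oxidants did not pass the test either. Of 27 tested antioxidant enzymes 2 were lower at an unadjusted p under 0.05, against 4.08% of autosomal genes, and the median was 0.02. The glutathione transferases Gstm1 (-0.21 ± 0.06, edgeR adjusted p = 0.191) and Gsta4 (-0.29 ± 0.12, adjusted p = 0.457) had the smallest p-values, and the superoxide dismutase Sod1 was at 0.09 ± 0.05. Nuclear genes of oxidative phosphorylation (21 tested, median -0.01) and heat shock genes (16 tested, median 0.004) each held at most 2 genes past the unadjusted threshold.

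Among neural and glial lists, 32 synaptic genes (median 0.02), 15 astrocyte genes (0.04), 19 reactive astrocyte genes (-0.02), 18 myelin genes (-0.05) and 13 precursor genes (-0.02) lay near the median of all genes. Astrocyte genes had 4 higher and 1 lower at an unadjusted p under 0.05, against 4.67% and 4.08% of autosomal genes, and synaptic genes 1 and 2. The astrocyte enzyme Aldh1l1 was at 0.32 ± 0.10 (edgeR, adjusted p = 0.294), and Srgn, the proteoglycan serglycin, at -0.78 ± 0.24 (adjusted p = 0.294). Of 22 immediate early genes, which follow neuronal activity, 18 had positive values with a median of 0.11, and 5 were higher and 2 lower at that p, beside the same shares. Junb was at 0.43 ± 0.13 (adjusted p = 0.284) and Nr4a1 at 0.43 ± 0.13 (adjusted p = 0.294).

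Markers of regions, fluids and blood varied between libraries as well. Striatal genes (13 tested, median 0.13), cerebellar genes (15 tested, median 0.08, with 14 positive) and choroid plexus genes (15 tested, median 0.11) had positive medians. At an unadjusted p under 0.05, they had 4, 2 and 3 genes higher and 1, 0 and 0 lower, against 4.67% and 4.08% of autosomal genes. Adora2a, the striatal adenosine receptor, was at 0.46 ± 0.12 (edgeR, adjusted p = 0.185). Genes of meninges and fibroblasts (13 tested, median -0.17) had 3 lower at that p, beside the same 4.08%, with Islr at -0.90 ± 0.25 (adjusted p = 0.222). The hypothalamic hormone genes Avp (0.92 ± 0.28, adjusted p = 0.294) and Oxt (0.98 ± 0.38, adjusted p = 0.434) were also not called. All 4 tested globin genes had positive values with a median of 1.33. Summed globin levels were 27.9 to 79.9 CPM in wild type and 35.9 to 357 CPM in knockout, where replicates 4 and 5 stood at 357 and 253 CPM. Hbb-bs (1.27 ± 0.39, adjusted p = 0.294) and Hba-a1 (1.46 ± 0.47, adjusted p = 0.304) were not called. Without knockout replicate 4, Hba-a1 was at 0.73 and Hbb-bs at 0.62. Among other cell markers the medians were 0.33 for 9 neutrophil genes, 0.10 for 4 lymphocyte genes, -0.07 for 11 pericyte and smooth muscle genes and 0.07 for 8 ependymal genes. The medians were 0.09 for 13 cell cycle genes, -0.05 for 18 cell death genes, -0.08 for 22 neuropeptide genes, 0.03 for 16 genes of hippocampus and cortex and 0.03 for 12 of the thalamus. The part of region, choroid plexus, meninges or blood in the genotype differences above was not tested.

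**Figure D5:**
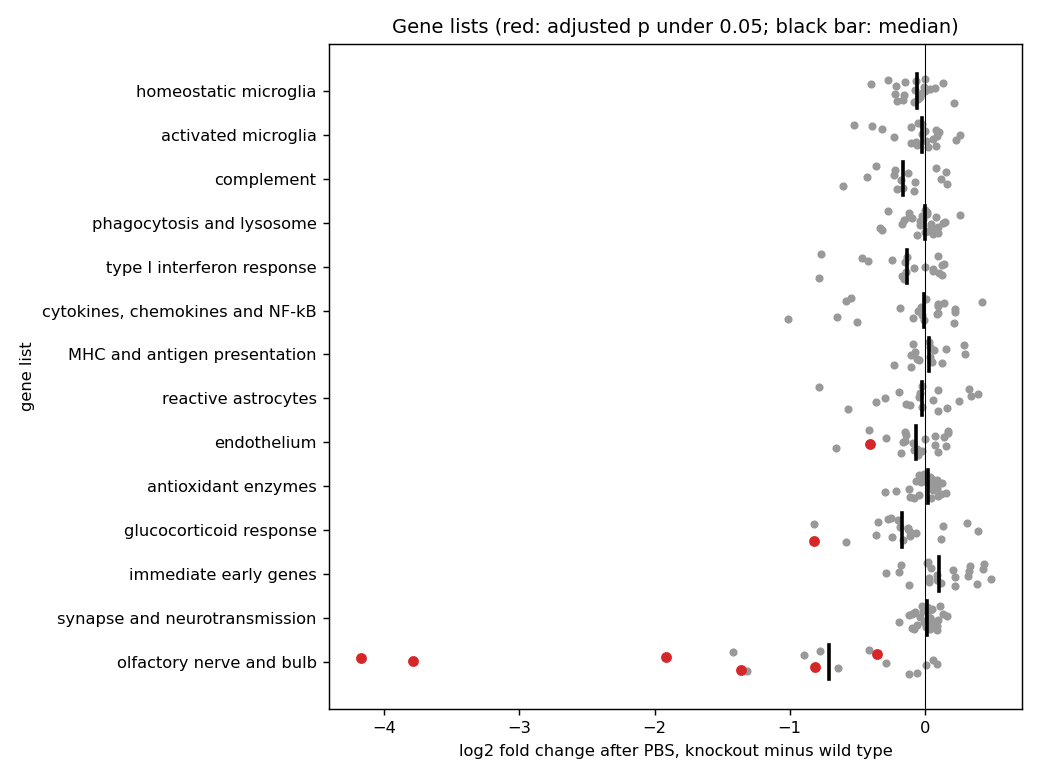
Log2 fold change after PBS, knockout minus wild type (horizontal axis), of the tested genes in 14 gene lists (vertical axis). Each point is a gene, red points passed an adjusted p under 0.05, and black bars are list medians. The olfactory list lies to the left with a median of -0.71, and the medians of the other lists shown lie between -0.17 and 0.11.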

How the data were processed

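The left brain hemispheres of 24 mice were sequenced with QuantSeq 3′ mRNA-Seq from 100 ng of total RNA, per the labels. The deposited values are raw counts per gene, and the authors made them on mm10 (GRCm38) with tools that the submitters' processing notes list as STAR 2.7.3a, Subread 2.0.0 with featureCounts, bcl2fastq, DESeq2 1.26.0 and R 3.6.1. Not given in the sources used here are the annotation release, strand setting and handling of duplicate or multiply matching reads, so overlapping genes and near-identical copies are uncertain.

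All 24 libraries entered 1 fit in edgeR 4.0.16 under R 4.3.3 (TMM, filterByExpr with a minimum count of 10, a mean per group, quasi-likelihood F test, 20 residual degrees of freedom). Benjamini-Hochberg adjustment ran over all 14380 genes tested, with calls made below 0.05. Positions come from GENCODE M21, which held 55240 of the 55421 genes. Of 19 genes called in the whole table, 2 were neither autosomal nor Cybb. Libraries of a group differed by more than sampling noise, so none was counted as a duplicate. The p-values measure the spread between libraries labelled as separate animals. The fit was tested on simulated data, in which all genes had the same dispersion and scarce genes were left unchanged. That test does not bear on the calls of scarce genes or of genes as uneven between libraries as S100a5 and Omp.

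The members and gene lists were chosen with earlier results of these data known, and the list of substrain genes (9 tested, 3 called) holds Wdfy1, Gabra2 and Tmem181b-ps. The naming rule takes Cybb, the NADPH oxidase genes, called genes with a mean of at least 2 CPM and every knockout library on one side of the wild type mean, and the called members and the 4 smallest p of each list. Of those last genes the text gives only some, picked after their values were seen. Other genes named were chosen after their values were seen. Some genes that the rule takes are not reported here and are left out of lists, but stay in the counts over all genes. Replicate numbers were not used as pairs, since same-numbered libraries correlated at only -0.009 to 0.080 in their deviations from the group means. The alternatives tried were DESeq2 1.42.0, its size factors, 2 other filters, the 12 PBS libraries alone, a replicate block, adjustment over the members only, and leaving out libraries.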

Additional observations from a re-analysis of the deposited data

Results flagged for a closer look

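In groups of 6, a library was set apart when its gap to the nearest other library was above Dixon's critical share of the group's range. Of 64 groups of named genes checked, 6 had such a library, and chance gives about 1 in 20. Wdfy1 stood at 53.2 CPM in wild type PBS replicate 4, with the next value at 58.1 CPM. Tmem181b-ps stood at 0.212 CPM, a single count, in wild type PBS replicate 3, where the others held 0. Any count is set apart in such a group, so that flag carries no weight. In knockout PBS replicate 6 Tmem181b-ps stood at 3.42 CPM, with the next at 11.3 CPM. Synpr stood at 114 CPM in knockout PBS replicate 1, above the next value of 93.8 CPM. Slc2a1 stood at 59.4 CPM in wild type PBS replicate 1, below the next value of 69.2 CPM. Per1 stood at 102 CPM in knockout PBS replicate 1, below the next value of 114 CPM. The genotype difference of Cybb was smaller after LPS than after PBS, with an interaction of -3.90 ± 0.25 on the log2 scale (edgeR, adjusted p = 2.34e-15).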

How the results depend on the processing

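The 3 higher and 13 lower autosomal calls, and the 10 genes (Cybb included) called in the same direction after LPS, were the base. With DESeq2, 6 genes were higher. Its lost calls were S100a5 (adjusted p = 0.0982), Fabp7 (0.306) and Doc2g (0.162). With no filter on low counts, 37 were higher, 43 lower and 32 shared with LPS. With only the 12 PBS libraries 12 were higher, and Omp, S100a5 and Shisa3 were no longer called because they did not pass the filter there. With a replicate block, 18 were higher and 17 lower, no call was lost, and 2 of 6 libraries matched their own number best. With 1 library left out, 3 to 11 were higher, 7 to 20 lower and 9 to 17 shared with LPS, Cybb ranged from 5.32 to 5.60, Rac1 from -0.038 to 0.0022 and Rac2 from -0.31 to 0.10. More than 1.5 times the base count were higher without wild type PBS replicate 4 (5), 5 (9) or 6 (6) or knockout PBS replicate 1 (11), 3 (5) or 4 (5). The lower count moved as much without wild type PBS replicate 3 (7) or 4 (20) or knockout PBS replicate 3, 5 or 6 (8 each). Rac1 was at 0.012 without wild type PBS replicates 3 and 4 together, an alternative chosen after seeing the data, which also ended the calls of Ly6c1 (adjusted p = 0.206) and Polr3e (0.20). The causes were not tested. Depth limits precision for scarce transcripts, with a median SE of 0.374 under 2 CPM against 0.0758 at 20 CPM or more.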
